A study of Homo sapiens with 9 samples.

Results

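The promoters of long noncoding RNA (lncRNA) genes that carried H3K4me3 in control HEL cells and lay away from any protein-coding start were followed after loss of each of 3 subunits of the m6A RNA methyltransferase. HEL is an established human erythroleukemia cell line, and cells were transduced with lentiviral CRISPR-Cas9 constructs and grown in RPMI with serum. The control group, NTC, received non-targeting guides and gave 3 CUT&RUN libraries, and METTL3-KO, METTL14-KO and WTAP-KO gave 2 libraries each. All 9 libraries came from the same line carrying a CRISPR construct, and the labels do not say whether libraries of a group came from separate transductions, so the p-values below measure the spread between libraries, which may be technical. Peaks of all libraries that shared at least 1 bp were merged into 30404 regions, of which 16226 had a peak in all 3 NTC libraries. Of these, 3003 lay within 1 kb of an annotated lncRNA transcript start, but 1971 were also within 1 kb of a protein-coding transcript start and 151 more within 5 kb of one. The remaining 881 regions are the lncRNA promoters described here. They stood for 784 lncRNA genes, 407 of the regions having a gene with a symbol and 474 a gene known by an Ensembl identifier only. The annotated start itself lay inside the region in 571.

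H3K4me3 is placed on the nucleosomes around active transcription starts by the SETD1 and MLL methyltransferase complexes, and lncRNA genes transcribed by RNA polymerase II carry it as coding genes do. Many promoters of both kinds sit in CpG islands, which recruit these complexes through CpG-binding subunits. METTL3 is the catalytic subunit of the m6A writer, METTL14 its RNA-binding partner and WTAP the adaptor that holds the pair in nuclear speckles.

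The sequences around the start of 4 lncRNAs are shown because 3 of them stand for the main outcomes in the KO libraries and MIR100HG for an exception, while all have a similar, low number of CpGs. Each run of 300 bases covers 250 bases before and 50 after the start on hg19, is written 5′ to 3′ on the strand of the gene, and has every CpG in capitals. LINC00533 (chr6:28616794-28617093, minus strand) kept a peak in all 6 KO libraries. MIR3142HG (chr5:159865351-159865650, plus strand) kept it in the METTL3-KO libraries and in no other KO library. JRKL-AS1 (chr11:96239941-96240240, minus strand) was strong in NTC and had no KO peak. MIR100HG (chr11:122027772-122028071, minus strand) kept nearly the same signal without METTL14 as without METTL3. The 4 windows hold 5, 5, 6 and 6 CpGs in this order.
LINC00533: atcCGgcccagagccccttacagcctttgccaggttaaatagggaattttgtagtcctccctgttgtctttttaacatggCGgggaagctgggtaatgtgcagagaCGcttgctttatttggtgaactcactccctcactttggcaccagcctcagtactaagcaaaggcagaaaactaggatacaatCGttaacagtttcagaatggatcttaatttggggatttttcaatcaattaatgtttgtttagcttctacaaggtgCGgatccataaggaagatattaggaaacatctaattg
MIR3142HG: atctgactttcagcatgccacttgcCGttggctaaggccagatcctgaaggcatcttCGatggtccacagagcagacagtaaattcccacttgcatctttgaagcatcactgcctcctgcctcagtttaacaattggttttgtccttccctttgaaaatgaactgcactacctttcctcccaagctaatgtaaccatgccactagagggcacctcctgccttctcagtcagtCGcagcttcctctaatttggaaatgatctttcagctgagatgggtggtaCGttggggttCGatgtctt
JRKL-AS1: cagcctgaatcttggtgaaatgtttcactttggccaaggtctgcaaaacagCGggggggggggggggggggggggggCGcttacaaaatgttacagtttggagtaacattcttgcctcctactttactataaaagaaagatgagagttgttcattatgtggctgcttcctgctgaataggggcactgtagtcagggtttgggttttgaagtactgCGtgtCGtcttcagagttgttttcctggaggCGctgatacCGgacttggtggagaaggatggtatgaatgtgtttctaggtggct
MIR100HG: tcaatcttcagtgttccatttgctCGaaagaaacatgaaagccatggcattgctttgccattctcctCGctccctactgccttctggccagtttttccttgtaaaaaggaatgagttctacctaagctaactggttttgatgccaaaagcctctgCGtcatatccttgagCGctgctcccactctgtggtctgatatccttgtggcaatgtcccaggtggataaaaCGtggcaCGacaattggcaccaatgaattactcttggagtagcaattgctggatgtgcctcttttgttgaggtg

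The members were intergenic in 748 cases (84.9%), lay inside a coding gene on the opposite strand in 93, and inside a coding gene on the same strand in 40. In NTC their region signal, the calibrated coverage summed over the peaks of a region, had a median of 3202 with quartiles of 1356 and 6580, and it ran from 172 to 36937. The 9385 NTC regions within 1 kb of a protein-coding start, called coding promoters here, had a median of 4029 and all 16226 NTC regions 2968. The median width was 1005 bp for lncRNA promoters and 1136 bp for coding promoters, and the 3 NTC values of a member had a median coefficient of variation of 22.0%. The limits of the rule made no visible step: the 40 members at 800 to 1000 bp from their start had a median NTC signal of 2522 and the 25 regions at 1000 to 1200 bp 2662, with a peak in some KO library in 15% and 16%. Likewise, the 16 members at 5 to 6 kb from a coding start had 3294 and the 29 regions at 4 to 5 kb 2827, with a KO peak in 31.3% and 24.1%. Of 10 erythroid and megakaryocytic marker genes, 5 had a peak at their start in all 3 NTC libraries (GATA1, KLF1, GYPC, EPOR and GFI1B), and of 8 genes of other lineages 7 had none in any library while PAX5 had one in all 3. Peak lists held 21724 to 21941 peaks in NTC, 9205 and 9369 in METTL3-KO, 3169 and 5286 in METTL14-KO, and 3160 and 3673 in WTAP-KO, and the number of reads behind them is unknown. A region without a peak is recorded at 0, which here means only that the authors' list holds no peak there and not absence of the mark.

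Most lncRNA promoters had no peak in the KO libraries. METTL3-KO libraries had a peak at 217 and 199 of the 881 members, METTL14-KO libraries at 108 and 60, and WTAP-KO libraries at 52 and 66. The METTL3-KO libraries therefore held more of them than any of the other 4, and METTL14-KO and WTAP-KO overlapped. The mean was 208 ± 12.7 (SD, n = 2) in METTL3-KO against 71.5 ± 25 (SD, n = 4) in the other KO libraries, a difference of 136.5 members (exact permutation test, two-sided p = 0.133, as small as 15 splits can give). Counting a peak in either library, 72.0% of members had none in METTL3-KO, 87.3% in METTL14-KO and 92.3% in WTAP-KO, and 631 (71.6%) had none in any KO library. Over all NTC regions the 3 shares were 71.4%, 87.3% and 92.9%, so the lncRNA promoters lost their peaks about as often as NTC regions at large. A peak in some KO library was found at 28.4% of members, against 41.0% of coding promoters and 29.0% of NTC regions. A peak in all 6 KO libraries was found at 36 members (4.09%), against 4.37% of coding promoters and 3.15% of NTC regions.

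The groups kept largely nested sets. Of the 250 members with any KO peak, 131 had one in METTL3-KO only, 48 in METTL3-KO and METTL14-KO, 61 in all 3 groups and 7 in METTL3-KO and WTAP-KO. The remaining 3 had one in METTL14-KO only, and no member had a peak in WTAP-KO alone.

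How strong a promoter was in NTC went along with how many KO libraries kept it. The median NTC signal was 2046 among the 631 members with no KO peak, 5863 among the 69 with a peak in 1 KO library, 7519 among the 75 with 2 and 14833 among the 36 with all 6. In the upper tertile of NTC signal, 5177 to 36937, the 6 KO libraries had a peak at 175, 167, 100, 58, 49 and 63 of 294 members, in the order METTL3-KO, METTL14-KO, WTAP-KO. In the middle tertile they had one at 40, 31, 8, 2, 3 and 3 of 293, and in the lower tertile at 2, 1, 0, 0, 0 and 0 of 294. Peaks that were kept were small: their median signal was 14.9% and 9.06% of the member's own NTC mean in the METTL3-KO libraries, 9.49% and 5.60% in METTL14-KO and 6.48% and 7.40% in WTAP-KO.

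**Figure D1:**
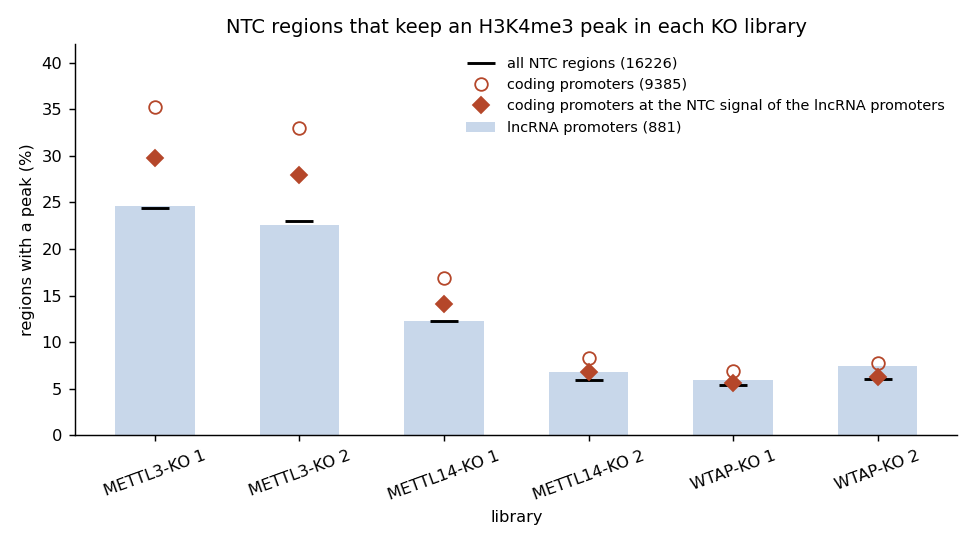
Share of regions with a peak (percent, vertical axis) in each of the 6 KO libraries: bars for the 881 lncRNA promoters, lines for all 16226 NTC regions, open circles for the 9385 coding promoters, diamonds for coding promoters weighted to the NTC signal of the lncRNA promoters. The bars fall from 24.6% and 22.6% in METTL3-KO to 5.90% and 7.49% in WTAP-KO and lie near the lines in every library.

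Whether lncRNA promoters kept their peaks as often as coding promoters of the same strength was asked with regions sorted into deciles of NTC signal. Without this step fewer lncRNA than coding promoters kept a peak in each of the 6 libraries, by 10.7 and 10.3 percentage points in METTL3-KO, 4.65 and 1.52 in METTL14-KO, and 1.01 and 0.255 in WTAP-KO (mean difference -4.74 points, exact sign-flip permutation over the 6 libraries, two-sided p = 0.0313, the smallest it can give). At equal NTC signal the differences, lncRNA minus coding, were -5.18 and -5.34 points in METTL3-KO, -1.79 and -0.0087 in METTL14-KO, and 0.238 and 1.17 in WTAP-KO. Their mean was -1.82 ± 2.83 points (SD, n = 6; exact sign-flip permutation test, p = 0.219), so no difference common to the 6 libraries was found. Only 4 of the 6 differences were negative. The test pools libraries of 3 knockouts, so its spread includes differences between the groups. It cannot decide whether the METTL3-KO difference, -5.18 and -5.34 points, would hold. In METTL3-KO 18.3% of lncRNA and 32.6% of coding promoters of the seventh decile had a peak (mean of 2 libraries), 36.9% and 48.6% of the eighth, 57.1% and 69.0% of the ninth, and 87.4% and 88.8% of the tenth. In the tenth decile the order was turned in METTL14-KO, at 55.3% and 53.4%, and in WTAP-KO, at 44.7% and 41.7%.

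**Figure D2:**
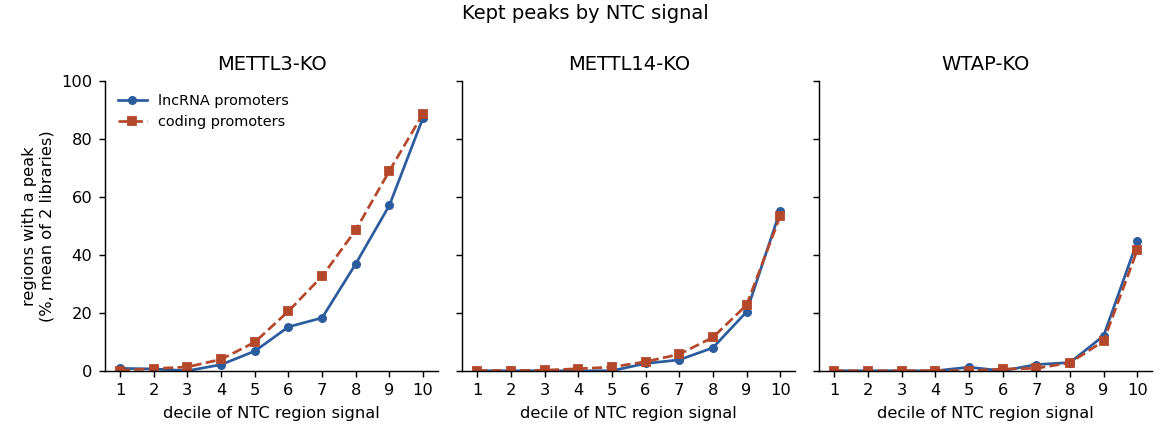
Share of regions with a peak (percent, mean of 2 libraries) against decile of NTC region signal, 1 panel per KO group, circles with solid lines for lncRNA promoters and squares with dashed lines for coding promoters. Both curves rise steeply in the upper deciles, and they stand apart between deciles 6 and 9 of METTL3-KO.

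CpG content divided the members further. A window was called CpG-rich when its observed over expected CpG was above 0.6 and its GC share above 50%, which none of the 4 windows printed above reached. By this measure 433 members (49.1%) were CpG-rich, against 84.8% of coding promoters in NTC regions, 21.1% of all annotated lncRNA starts and 65.8% of all coding starts. In the middle tertile of NTC signal, 41 of 132 CpG-rich members (31.1%) had a peak in some KO library against 9 of 161 others (5.59%), with median NTC signals of 3392 and 3103. In the upper tertile it was 126 of 164 (76.8%) against 71 of 130 (54.6%), with medians of 8944 and 8743. In the lower tertile it was 1 of 137 against 2 of 157. The median number of CpGs in the 300-bp window was 21 for members kept in METTL3-KO only, 16 for those kept in all 6 libraries and 11 for those with no KO peak, over a median of 15 for all members. These shares describe the regions and were not tested, since regions of a library are not replicates.

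**Figure D3:**
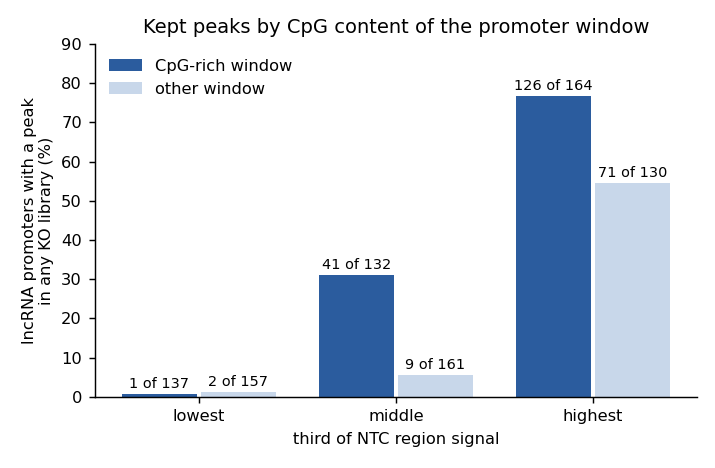
Share of lncRNA promoters with a peak in any KO library (percent, vertical axis, from 0) by tertile of NTC signal, with dark bars for CpG-rich windows and light bars for other windows and the counts above each bar. The dark bar is the taller in the middle and the upper tertile, at 31.1% against 5.59% and 76.8% against 54.6%.

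The comparison with coding promoters was repeated within each CpG class, a step chosen after seeing the data. Among CpG-rich windows, 433 lncRNA and 7962 coding promoters, the standardised differences were -0.913 and -2.73 points in METTL3-KO, 0.711 and 0.300 in METTL14-KO, and 1.39 and 2.43 in WTAP-KO, with a mean of 0.196 (exact sign-flip permutation test, p = 0.813). Among the other windows, 448 and 1423 regions, the mean was -1.06 points (exact p = 0.219). Neither mean passed the test, and the sign of the first was opposite to that over all windows.

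Letters of known promoter motifs were counted on both strands of the same 300-bp windows. The GC box GGGCGG, bound by SP factors, stood in 46.9% of members, 77.0% of coding promoters in NTC regions and 22.5% of all lncRNA starts. The GATA word AGATAA, bound by the erythroid factor GATA1, stood in 11.6% of members, 4.32% of coding promoters in NTC regions and 14.1% of all lncRNA starts. The CCAAT box was found in 37.0%, 34.5% and 35.2% of the 3 sets, and TATAAA in 6.24%, 4.51% and 15.8%. The ETS word CCGGAAG stood in 12.6%, 18.8% and 4.97%, the E-box CACGTG in 8.85%, 10.1% and 5.48%, and the KLF word CCACACCC in 2.95%, 2.78% and 3.00%. The NRF1 word GCGCATGC stood in 4.77% of members, 5.71% of coding promoters and 1.57% of lncRNA starts, and the CRE word TGACGTCA in 2.16%, 3.18% and 0.840%. Among the printed windows, MIR3142HG and MIR100HG hold the CCAAT letters and JRKL-AS1 the TATA letters. LINC00533 holds none of the 9 words.

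Position and annotation also sorted the members. A KO peak was present at 29.5% of the 748 intergenic members, 17.2% of the 93 antisense and 32.5% of the 40 same-strand members, whose median NTC signals were 3181, 2551 and 4510. Members more than 100 kb from a coding start (190) had a KO peak in 17.9%, with a median NTC signal of 2185, while the 405 at 20 to 100 kb had one in 31.4% and the 286 at 5 to 20 kb in 31.1%. Members at which starts of several lncRNA genes met (139) had a KO peak in 37.4% against 26.7% of the 742 with a single gene. Their median NTC signals were 3924 and 3099. In the middle tertile of NTC signal the shares were 22.7% and 16.1%, and in the upper tertile 75% and 65.1%. By chromosome, 29 of 64 members on chromosome 15 and 15 of 42 on chromosome 6 had a KO peak, 7 and 8 of them in all 6 libraries. On chromosome 14 it was 1 of 32 and on chromosome X 0 of 23. These chromosome counts were not adjusted for NTC signal. The 7 members on the Y chromosome are counted but not described.

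Among 145 members whose lncRNA overlaps an annotated pseudogene, 45.5% had a KO peak, against 25% of the other 736. In the middle tertile of NTC signal the shares were 43.8% and 11.8%, and in the upper tertile 74.6% and 65.1%. Near-identical copies can share reads, and how the authors placed such reads is not given in the sources used here. Words of 31 bases taken every 20 bases occurred more than once in hg19 for over 50% of the words in 176 members (19.98%) and 159 coding promoters (1.69%). Such copied members had a KO peak in 33.5% against 27.1% of the rest, 32.3% against 13.0% in the middle tertile and 67.9% against 66.8% in the upper one. Of the 36 members kept in all 6 libraries 7 were copied. The part of shared reads in these shares was not tested.

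The limma fit over all 24547 regions with a peak in at least 2 libraries gave the sizes of the changes on the scale log2(region signal + 30.1). Members were lower in METTL3-KO than in NTC in 847 of 881 cases (adjusted p under 0.05), in METTL14-KO in 877 and in WTAP-KO in 876, and no member was called higher in any of them. In the same order 62.4%, 65.3% and 65.5% of all tested regions, and 94.4%, 98.8% and 99.1% of NTC regions, were called lower. All KO libraries together against NTC called 879 members lower, with 76.7% of all tested regions and 99.3% of NTC regions. Since members were required to have NTC peaks, these counts and folds describe them and test nothing. The median log2 difference of members was -5.57 in METTL3-KO, -6.21 in METTL14-KO and -6.44 in WTAP-KO, against -5.43, -6.13 and -6.35 over NTC regions and -4.24, -5.06 and -5.20 over all tested regions. A region with no KO peak takes its value from the pseudocount, so the larger of these differences give no fold. When libraries were centred on the 511 regions with a peak in all 9 libraries, the median over all tested regions moved to -2.20, -1.83 and -1.40, that of the members to -3.53, -2.98 and -2.64, and 729, 705 and 666 members were called lower and 2, 7 and 11 higher. Of all tested regions, 52.6%, 50.9% and 47.7% were then called lower and 13.8%, 13.7% and 15.1% higher.

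NTC levels did not enter the contrast of METTL3-KO with the other KO libraries, although the NTC libraries shared its estimate of spread, so here the members could be tested. In the fit, 107 members (12.1%) were higher in METTL3-KO than in METTL14-KO and WTAP-KO, and none was lower, where 14.7% of all tested regions and 11.7% of NTC regions were higher. The share of members was thus near that of the background, and 17.6% of coding promoters were called. Centring on the 511 regions called in all 9 libraries moved the median of all tested regions by -1.47 and gave 95 members higher and 580 lower, with 12.9% of all tested regions higher and 42.5% lower. Of the 580, 572 had no peak in any KO library and carried only the centring offset, which says nothing of their signal, and 8 had a KO peak. On values divided by the step of each library, 76 members (8.63%) were higher and 0 lower, with 9.75% of all tested regions higher and 0.684% lower.

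The 5 members with the largest METTL3-KO difference among those called had peaks in both METTL3-KO libraries and in none of the other 4 KO libraries. CHROMR, a lncRNA known for its part in cholesterol homeostasis, had region signals of 14614, 14220 and 17197 in NTC, 3939 and 2261 in METTL3-KO, and 0 in the METTL14-KO and WTAP-KO libraries. Its METTL3-KO values were below all NTC values and above all other KO values, with a log2 difference from the other KO libraries of 6.65 ± 0.30 (SE; limma adjusted p = 2.67e-05), 5.17 after centring and 7.48 on the step scale. LINC01004 on chromosome 7 had 10552, 13750 and 15694 in NTC and 2671 and 1716 in METTL3-KO (log2 difference from other KO 6.17 ± 0.29, limma adjusted p = 3.05e-05). The other members of this set were ENSG00000268583 on chromosome 19 (METTL3-KO 2580 and 1007), ENSG00000289410 on chromosome 2 (2164 and 1127) and ENSG00000290762 on chromosome 3 (2390 and 1445), the last with 95.3% of its words repeated in the genome. All 5 stayed called higher under both other scalings. Since their METTL14-KO and WTAP-KO values were all 0, the size of these differences depends on the pseudocount and gives no fold. Equal values of 0 also add no spread, so the SE and adjusted p do not measure variation between those libraries.

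The members kept in all 6 KO libraries were among the strongest in NTC. Their median signal in the 6 KO libraries was 29.2%, 18.3%, 14.0%, 7.53%, 6.23% and 9.55% of their own NTC mean, in the order METTL3-KO, METTL14-KO, WTAP-KO. LINC00533, whose CpG-poor start is printed above, had 26815, 24327 and 25726 in NTC, 14295 and 10095 in METTL3-KO, 4996 and 4671 in METTL14-KO, and 3862 and 3493 in WTAP-KO. Every KO value was below every NTC value, and the 3 KO groups did not overlap each other. Its log2 difference from NTC was -1.09 ± 0.23 (SE) in METTL3-KO, -2.40 ± 0.23 in METTL14-KO and -2.79 ± 0.23 in WTAP-KO. SNHG32 and SNHG30 are host genes of small nucleolar RNAs, which guide the modification of ribosomal and other RNAs from introns of such genes. SNHG32 had 16303, 15177 and 14984 in NTC, 7651 and 4561 in METTL3-KO, 3895 and 2338 in METTL14-KO, and 1841 and 1914 in WTAP-KO. SNHG30 had 9225, 11959 and 12784 in NTC, 4381 and 2343 in METTL3-KO, 1021 and 788 in METTL14-KO, and 947 and 1384 in WTAP-KO. In both, all KO values lay below the NTC values and both METTL3-KO values above all others. Their METTL3-KO difference from the other KO libraries was 1.30 and 1.63 (limma adjusted p = 0.0461 and 0.0324) and for LINC00533 1.51 (0.00405), but after centring these were -0.17, 0.16 and 0.03 and none was called, nor was any on the step scale.

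The strongest lncRNA promoters of all were also kept by most libraries. TSBP1-AS1, in the major histocompatibility region, had 36745, 34743 and 38193 in NTC, 8631 and 3518 in METTL3-KO, 5130 and 3041 in METTL14-KO, and 758 and 2713 in WTAP-KO. CARMAL had 33384, 33721 and 38143 in NTC, 5667 and 2157 in METTL3-KO, 3186 and 1566 in METTL14-KO, and 186 and 464 in WTAP-KO. For both, every KO value was far below NTC and the WTAP-KO values were the lowest, while METTL3-KO and METTL14-KO overlapped. CROCCP2 and BTN2A3P, pseudogenes of CROCC and of the butyrophilin family, also had a peak in all 6 KO libraries, as did CEP250-AS1, with WTAP-KO values of 3503 and 4800, 3827 and 5314, and 2941 and 4611. GOLGA8M, the strongest of all by mean NTC signal, shares its symbol with a coding gene and had 84% of its words repeated.

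**Figure D4:**
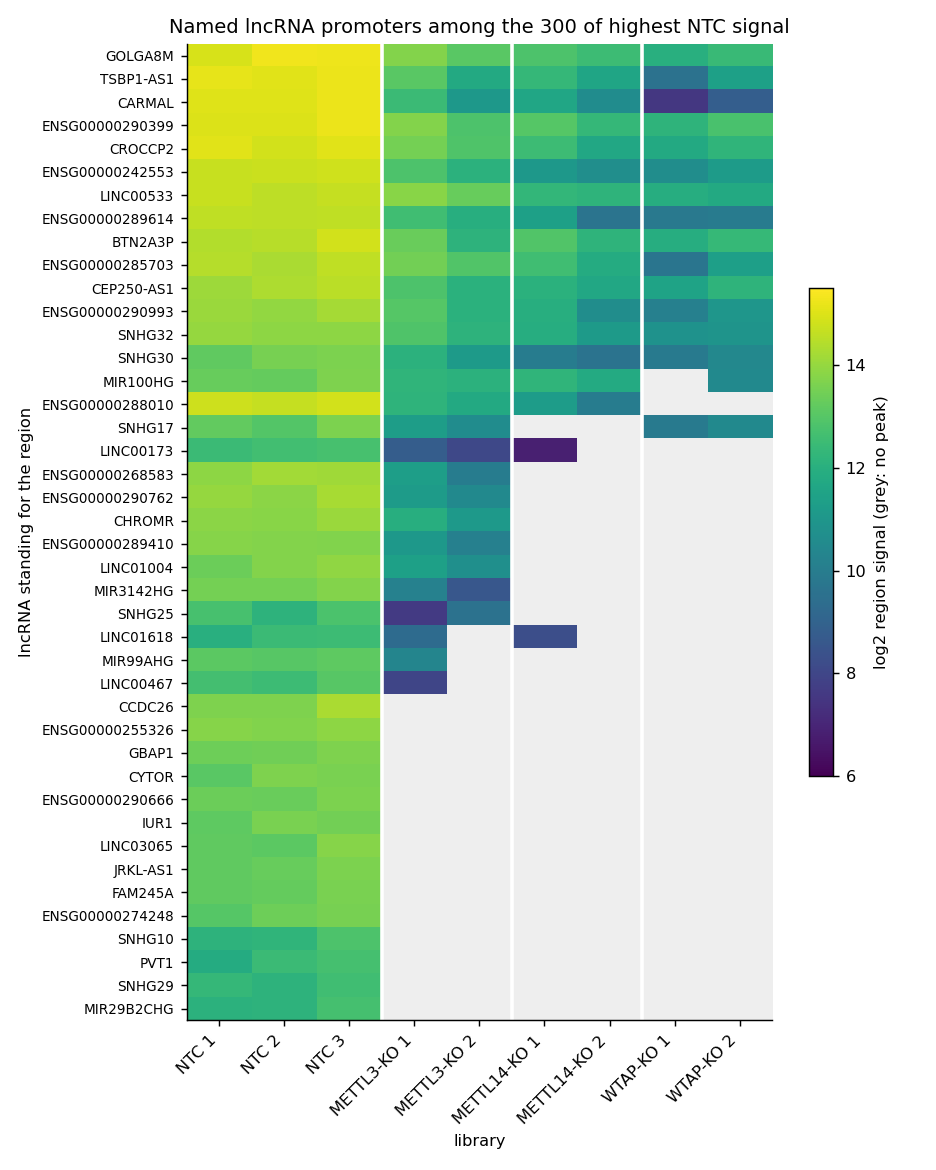
Log2 region signal (colour scale, grey for no peak) of the described lncRNA promoters among the 300 of highest NTC signal, rows for the lncRNA standing for each region and columns for the 9 libraries. NTC columns are filled in every row, and the rows run from members kept in all 6 KO libraries at the top, through those kept in METTL3-KO, to those with no KO peak at the bottom.

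Some strong members had no KO peak at all. CCDC26, a lncRNA locus linked to myeloid leukemia, had its strongest promoter region on chromosome 8 at 12948, 12980 and 19964 in NTC. GBAP1, a transcribed pseudogene, had 10836, 11050 and 12863. JRKL-AS1, with the CpG-poor start printed above, had 9250, 10039 and 12695. None of the 3 had a peak in any of the 6 KO libraries. SNHG30, which had one in all 6, had NTC values that overlapped those of GBAP1 and JRKL-AS1 and lay below those of CCDC26. CYTOR, a lncRNA linked to cell growth, had 8658, 12841 and 12460 at its strongest member region, with 77.3% of words repeated, and no KO peak there. Another CYTOR start region, without an NTC peak, had 5719 and 770 in METTL3-KO and 406 in WTAP-KO replicate 2. IUR1, LINC03065, FAM245A and 3 genes known by identifier, ENSG00000255326, ENSG00000290666 and ENSG00000274248, completed the 10 strongest members without a KO peak.

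A few members departed from the common order of groups. MIR100HG, host of a microRNA cluster, had 9911, 9773 and 13127 in NTC, 4811 and 4370 in METTL3-KO, 4697 and 3602 in METTL14-KO, and 0 and 1459 in WTAP-KO. Its METTL14-KO values overlapped the METTL3-KO values and none of its words was repeated, and its differences from NTC were not called in METTL3-KO (log2 difference -1.24 ± 1.49, limma adjusted p = 0.462) or METTL14-KO (-1.39 ± 1.49, 0.417) and were called in WTAP-KO (-5.68 ± 1.49, 0.0121). The fit shares 1 spread over all groups, and the WTAP-KO values of 0 and 1459 lie far apart. All METTL3-KO and METTL14-KO values of MIR100HG lay below all its NTC values, so the missing calls do not mean equal signal. The size of the WTAP-KO difference depends on the 0. LINC00273 (chr16:33963031-33964169) had 7595, 3193 and 7032 in NTC, 4438 and 15628 in METTL3-KO, 2905 and 0 in METTL14-KO, and 12366 and 15808 in WTAP-KO. Both WTAP-KO values stood above all NTC values, the difference was not called (log2 difference 1.33 ± 1.83, limma adjusted p = 0.534), and 44.6% of its words were repeated. The 2 member regions of MIR663AHG near the centromere of chromosome 20 had WTAP-KO values of 2481 and 3854, and of 8025 and 10778, against NTC values of 2465, 2140 and 1809, and of 6506, 4790 and 3862. In both regions each WTAP-KO value was above each NTC value while METTL14-KO had no peak, the WTAP-KO difference was not called (limma adjusted p = 0.665 and 0.0501), and 20% and 15.6% of words were repeated. FAM27C (chr9:44992104-44994304), with 96.3% of its words repeated, had 9100, 9586 and 13119 in NTC and 8000 and 12267 in WTAP-KO, values that overlap. These members were named after their values were seen, and LINC00273 and the 2 MIR663AHG regions were the only members of the 881 with both WTAP-KO values above the lowest NTC value.

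**Figure D5:**
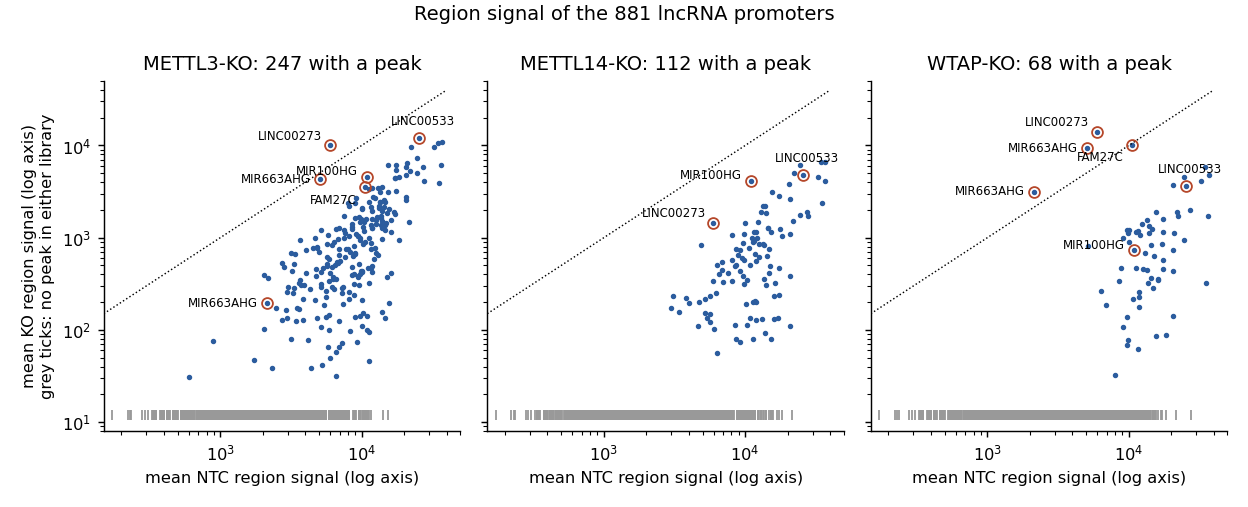
Mean KO region signal (vertical, log axis) against mean NTC region signal (horizontal, log axis) for the lncRNA promoters, 1 panel per KO group, each point a region with a peak in that group, grey ticks at the bottom for regions without one and the dotted line for equal signal. Nearly all points lie well below the line, with LINC00273 above it in METTL3-KO and WTAP-KO and both MIR663AHG regions above it in WTAP-KO.

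Groups of known lncRNAs were followed by list, and their counts stand beside a background of 94.4%, 98.8% and 99.1% of NTC regions called lower without METTL3, METTL14 and WTAP, and of 29.0% with a peak in some KO library. Since nearly every NTC region was called lower, such calls are no result about a list. Of 29 snoRNA host genes, 28 were annotated as lncRNA and 9 had a member, in 13 regions. All 13 were called lower in each KO group, 6 had some KO peak and 2, SNHG32 and SNHG30, had one in all 6 libraries. SNHG17 had 9646, 7941 and 12714 in NTC, 2493 and 1579 in METTL3-KO, no peak in METTL14-KO, and 937 and 1459 in WTAP-KO. It was thus among the 7 members with a peak in METTL3-KO and WTAP-KO but not METTL14-KO. SNHG8 and SNHG25 kept a peak at 1 region each in METTL3-KO only, at 404 and 154 and at 195 and 774, and a region shared by DANCR and LINC01618 had single peaks of 637 in METTL3-KO and 308 in METTL14-KO. The 7 regions without a KO peak belonged to SNHG10, SNHG29, SNHG25, SNHG7, SNHG8 and DANCR.

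Of 31 microRNA host genes, 27 were annotated as lncRNA and 10 had a member, in 11 regions with a KO peak at 4. MIR3142HG, host of miR-146a, had 11675, 11601 and 13758 in NTC and 1168 and 383 in METTL3-KO, with no peak in the other KO groups. MIR17HG, host of an oncogenic microRNA cluster, had 3638, 3062 and 4955 in NTC and 476 and 136 in METTL3-KO, with no other KO peak at this region. Another MIR17HG start region, without an NTC peak, had 5482 and 1550 in METTL3-KO and 849 and 287 in METTL14-KO. MIR99AHG had 8747, 8426 and 9084 in NTC at its member region and a single KO peak there of 1281 in METTL3-KO replicate 1. At another MIR99AHG start region, without an NTC peak, METTL3-KO replicate 2 had 4150. METTL14-KO had 3128 and 1221 there and WTAP-KO 1978 and 3546. MIR100HG, given above, was the fourth. In this list 10 regions were called lower in METTL3-KO, 10 in METTL14-KO and 11 in WTAP-KO.

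Of 15 symbols listed as nuclear and abundant lncRNAs, 11 were annotated as lncRNA and 4 had a member, in 5 regions. These were FTX with 2 and JPX, both at the X-inactivation centre, the imprinted antisense transcript KCNQ1OT1, and MIAT. None had a KO peak, and all 5 were called lower in each KO group, with mean NTC signals of 586 to 3291. Of 38 symbols listed as lncRNAs linked to blood or leukemia, 28 were annotated as lncRNA and 6 had a member. Their 16 regions were all called lower in each KO group, and 2 had a KO peak. LINC00467 had 6396, 5860 and 8420 in NTC and 252 in METTL3-KO replicate 1, and LINC00173 had 5712, 6367 and 6798 in NTC, 444 and 266 in METTL3-KO and 113 in METTL14-KO replicate 1. PVT1, which lies beside MYC, had 4 member regions, the strongest with 3640, 5668 and 6713 in NTC, and none of these regions had a KO peak. Another PVT1 start region, without an NTC peak, had 7239 and 3002 in METTL3-KO. It had 1544 and 985 in METTL14-KO and 454 and 773 in WTAP-KO, and the nearest NTC peak lay 602 bp away. Of 17 symbols listed as HOX cluster lncRNAs, 16 were annotated as lncRNA, 2 had an NTC region at their start and none was a member.

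Peak lists were also compared by composition, which needs no peak in NTC. Peaks within 1 kb of a lncRNA start and over 5 kb from coding starts made up 5.00%, 5.03% and 5.04% of the peaks of the NTC libraries. They made up 4.71% and 4.43% in METTL3-KO, 4.58% and 4.86% in METTL14-KO, and 4.56% and 4.74% in WTAP-KO. All KO values lay below all NTC values, and the means were 4.65% ± 0.152 (SD, n = 6) and 5.02% ± 0.0184 (SD, n = 3), a difference of -0.378 points (exact permutation test over 84 splits, two-sided p = 0.0238, as small as they can give). Peaks at coding promoters made up 53.6% to 55.3% in NTC and 67.5% to 80.7% in the KO libraries.

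Merged regions at such starts with a peak in no NTC library numbered 210, and 39 of these had a peak in all 6 KO libraries. Of 4623 regions of any kind with a peak in no NTC library, 757 had one in all 6. No peak list, NTC or KO, held a peak wider than 2000 bp while 1307 NTC peaks were 1901 to 2000 bp wide, and an NTC peak lay within 1 kb of 7 of the 39 regions and within 5 kb of 18. The median width of KO peaks there was 823 bp, against 541 bp at the 36 members kept in all 6 libraries. The strongest, at ENSG00000288909 and LINC00910 on chromosome 17, had 47404 and 43251 in METTL3-KO, 33764 and 24736 in METTL14-KO, and 29963 and 36086 in WTAP-KO, with the nearest NTC peak 8920 bp away. Whether an upper limit on peak width removed NTC peaks at these starts was not tested. Of the genes on the lists above, 19 had one of the 210 regions and 11 of them had no member, among them MALAT1, NEAT1 and NORAD, abundant nuclear and cytoplasmic lncRNAs, and DLEU1, which lies in a region deleted in leukemia. The strongest DLEU1 region, shared with DLEU2, had 13835 and 8443 in METTL3-KO, 4318 and 3333 in METTL14-KO, and 3286 and 4866 in WTAP-KO. The nearest NTC peak lay 1096 bp away. Another DLEU1 region had no peak in METTL3-KO replicate 1 and 7507 in replicate 2. It had 809 and 570 in METTL14-KO and 2518 and 3239 in WTAP-KO. The strongest NORAD region had no peak in METTL3-KO and 2746 and 1594 in METTL14-KO and 5906 and 7990 in WTAP-KO, and the strongest MALAT1 region likewise had none in METTL3-KO and 2015 and 2955, and 1639 and 3233, in the other groups. Other MALAT1 regions had METTL3-KO peaks only, at 1231 and 782 in one and at 1319 in replicate 1 in another, and the NEAT1 region had a single peak of 1053 in METTL3-KO replicate 1.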

How the data were processed

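H3K4me3 CUT&RUN was measured in 9 HEL libraries. Per the study's methods and the submitters' processing notes, the authors aligned paired-end reads with Bowtie to hg19 and to the yeast genome sacCer3, scaled coverage by the yeast spike-in, removed duplicates with Picard and called peaks in each library, with versions and calling limit not given in the sources used here. The authors deposited per library a peak list with a calibrated coverage signal per peak, so depth is unknown and no interval from counts was given. Peak starts were assumed to be 0-based and are printed 1-based.

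Groups came from the sample labels. Peaks were merged, annotated with GENCODE on hg19, and the signals of peaks in a region were summed (Python 3.11.15, pandas 2.3.3, numpy 2.4.6, scipy 1.17.1, matplotlib 3.10.9). Log2(signal + 30.1), the added value being the smallest region signal, was fitted with limma 3.58.1 in R 4.3.3 with a trend, 4 groups and Benjamini-Hochberg adjustment over 24547 regions with a peak in at least 2 libraries, called at 0.05. The script was tested on simulated data. Exact permutation tests compared libraries. The members and gene lists were chosen with earlier results of these data known. Named were members on 5 lists (snoRNA host, microRNA host, nuclear and abundant, HOX cluster, blood and leukemia), the 10 of highest NTC signal, up to 10 with a peak in all 6 KO libraries, the 10 strongest without a KO peak and the 5 of largest METTL3-KO difference. The Y chromosome was left out of named genes. Alternatives changed merging, peak limit, windows, distance, pseudocount, filter, scaling, groups in the fit and libraries. The step scale, the CpG classes and the exclusions of pseudogenes and copied regions were added after seeing the data. On the step scale each value is divided by the step of its library. This is the largest whole fraction of the lowest value of which nearly all low values of the library are whole multiples. Some promoter sequences are not reported here.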

Additional observations from a re-analysis of the deposited data

Results flagged for a closer look

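At some lncRNA promoters METTL3-KO differed from the other KO groups: 107 members (12.1%) had a higher signal in METTL3-KO than in METTL14-KO and WTAP-KO by the limma test of that difference, and 0 had a lower one, near the 14.7% of all tested regions and 11.7% of NTC regions called higher. The peak lists also held signal outside the compared regions. Of 210 regions at lncRNA starts without a peak in any NTC library, 39 had one in each of the 6 KO libraries. Their mean KO signals ran from 1510 to 35867 with a median of 3588. Of 4623 regions of any kind without an NTC peak, 757 had one in all 6, so such regions were not particular to lncRNA starts. No peak list held a peak wider than 2000 bp, and an NTC peak lay within 5 kb of 18 of the 39.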

How the results depend on the processing

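Over 13 results and 188 alternatives, 163 values stayed as reported, 18 moved further, 4 lost and 1 gained the threshold, and 2 reversed. Stayed means within the spread, on the same side of the test or, for counts of members, within a fixed ratio of the reported count. That ratio was wide. A fall from 876 to 666 members called lower in WTAP-KO after centring counted as stayed. So did one from 107 to 76 members higher in METTL3-KO than in other KO groups on the step scale. With peaks at or above the median NTC peak signal, 472 members remained, and 86.2%, 95.3%, 97% and 85.8% had no peak in METTL3-KO, METTL14-KO, WTAP-KO and any KO group. When peaks had to cover 25% of the region these were 81.6%, 95.5%, 96.3% and 81.5%. Merging within 1 kb gave 69.4% in METTL3-KO, a 3 kb window 76.2% in METTL3-KO and 93.5% in WTAP-KO, and leaving out pseudogene overlaps 75.3% and 93.6%. Leaving out each library in turn gave 72.9% to 77.4% in METTL3-KO, 87.7% to 93.2% in METTL14-KO and 92.4% to 94.1% in WTAP-KO. Centring on regions called in all 9 libraries gave 95 members higher and 580 lower in METTL3-KO than in other KO groups, 572 of the 580 having no peak in any KO library and only the centring offset. With only the 6 KO libraries fitted, and regions without a peak in them left out, 90 were higher and 0 lower. The lncRNA minus coding difference was -4.74 points without standardisation and 0.196 in CpG-rich windows. The KO minus NTC share of peaks was -0.640 points (exact p = 0.0952) for peaks above the median NTC signal, and from -0.421 to -0.335 leaving out 1 library, with an exact p of 0.0714 without any single NTC library, the smallest that 2 NTC against 6 KO libraries allow. Fewer libraries or other groups in a fit change what is compared, and for the other values the cause was not tested. Where leaving out a library left 1 in a group, that library was assumed to vary like the others.

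Replicate numbers were shared by groups, but the labels name no common batch. Deviations of same-numbered libraries had a mean correlation of -0.0022 over 12 pairs (-0.0688 to 0.0541), so no pairing by number was seen. The libraries of a KO group deviate as mirror images of each other, so the 12 pairs are not independent. These values therefore cannot decide whether libraries shared a batch. With the replicate number as a block, 814, 866, 867 and 872 members were called lower in METTL3-KO, METTL14-KO, WTAP-KO and all KO libraries, and 82 higher in METTL3-KO than in the other KO groups.

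Peak lists record nothing below the calling limit, so a member without a peak gives no level, and loss of more than the limit allows cannot be sized. The lowest deposited value was 24 to 28 steps in NTC and 30 to 94 in KO libraries.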
